A study of Danio rerio with 18 samples.

Results

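Hemoglobin and the red cell carbonic anhydrase were followed in zebrafish larvae through 16 of the 22980 probes on a spotted oligonucleotide array, which stand for 9 of the 9264 genes named there. The members were taken by symbol alone, as every probe named hba or hbb followed by e, a or a digit, plus cahz. Of these, 11 probes stand for embryonic globins, 3 for adult globins and 2 for cahz. The embryonic probes are 6 for the alpha globin hbae1.1, 1 for the alpha globin hbae3, 2 for the beta globin hbbe1.1 and 1 each for the beta globins hbbe2 and hbbe3. The adult probes are 1 each for the alpha globin hbaa2 and the beta globins hbba1 and hbba2. By the gene annotation, hbbe2 and hbbe3 lie on chromosome 12, cahz on chromosome 2 and all other members on chromosome 3.

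Each array compared Cy5-labelled RNA of whole wild-type larvae, pooled before extraction, with Cy3-labelled RNA pooled from whole adult fish, most of it male. Exposure began at 3 hours after fertilization and lasted 7 days, in egg water with 0.05% ethanol, the vehicle. Larvae were kept in this alone (control) or with 500, 1500 or 4500 µg/L bisphenol-A (BPA). BPA serves to make polycarbonate plastic and epoxy resin and has estrogenic activity. A value is the log2 ratio of larval over adult-reference signal, so that 0 means equal signal relative to the bulk of the spots on the array. The dyes were never swapped, and a difference between larvae and adults cannot be told apart from a dye effect of the probe. In whole-animal RNA, fewer red cells and less globin RNA per red cell cannot be told apart either.

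Red cells carry oxygen on hemoglobin, a tetramer of alpha and beta globin chains around heme. Zebrafish, like other vertebrates, switch globins during life: primitive red cells of the embryo and larva make embryonic chains, which adult chains replace as definitive red cells take over. The alpha and beta genes of zebrafish lie side by side, in a major locus that holds embryonic and adult genes and a minor one that holds embryonic genes. The enzyme cahz hydrates carbon dioxide in red cells and is widely used as a marker of them. Several globin genes have near-identical copies, and with no probe sequence at hand the copy a probe measures was not determined: the 6 probes under hbae1.1 were annotated with the older name hbae1, and the hbbe1.1 probes with hbbe1.

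The 18 deposited scans hold 16 different arrays, since control scans 4 and 5 share the same Cy5 value at 99.83% of spots and BPA_1500 scans 3 and 4 at 99.98%. Each such pair was averaged. The control group thus held 4 arrays and the groups at 500, 1500 and 4500 µg/L held 5, 3 and 4. The alternative with all 18 scans as arrays counts the scans of a pair as separate arrays, which overstates the replication. The median Cy3 background was 162 to 247 scanner units on 12 arrays and 92 to 129 on BPA_1500 replicates 1 and 3 and BPA_4500 replicates 2 and 3, so that low background fell only in groups at 1500 and 4500 µg/L. Where low background is fitted as a block, each group's value against the reference is estimated midway between low and other background. No control or 500 µg/L array had low background, so the block values of those groups against the reference are extrapolated. The labels call the samples biological replicates.

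The globin probes ranged from among the brightest to among the dimmest on the array. Probe 5449157 for cahz stood at the percentile 97.3 of mean brightness, hbae1.1 probe 5454231 at 97.0 and hbbe1.1 probe 5450958 at 94.8. At the other end, hbae1.1 probe 5449461 stood at 15.7, hbba2 at 33.2 and hbba1 at 36.6. A spot was taken as above background where its foreground exceeded the local background by 2 SD. By that measure the larval channel was above background for 54.7% of the member spots over all arrays, against 36.6% of all spots, and the reference channel for 87.1% against 75.3%. For 8 of the 16 members the larval channel was above background on 7 arrays or fewer, and for 8 there was a group in which it was so on no array. Where only the reference channel was above background, the larvae may lie lower than a ratio below 0 shows. Where neither channel was, the ratio sets no bound.

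**Figure D1:**
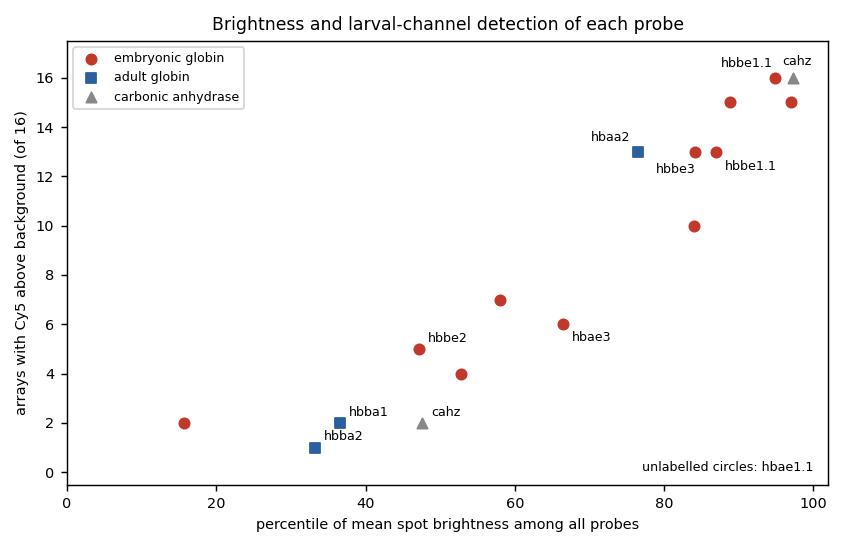
Each point is 1 of the 16 probes, with the percentile of its mean brightness among all probes on the x axis and the number of arrays, of 16, on which its Cy5 signal was above background on the y axis. hbba1 and hbba2 were above background in the larvae on 2 and 1 arrays, while cahz probe 5449157 and hbbe1.1 probe 5450958 were so on all 16.

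A normalized ratio was deposited for only part of the spots, and 6 member probes had at least 3 such values in every group. These are hbae1.1 probes 5448063, 5453374 and 5454231, both hbbe1.1 probes and cahz probe 5449157. They were tested among 3878 probes with enough values. The other 10 members, among them all adult globins, are given from a fit that kept every spot on 22980 probes. These probes are dimmer than the 6, except that hbbe3, at percentile 84.2 of brightness, stood level with hbae1.1 probe 5453374 at 84.0. Both hbbe3 and hbaa2 had larval signal above background on 13 arrays.

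The first comparison asks whether control larvae differed from adults in these genes. In control larvae 1 of the 16 members passed an adjusted p of 0.05 in the fit it belongs to, where 20.2% of the 3878 probes and 18.5% of all 22980 probes did. That member was hbae1.1 probe 5452348, an embryonic alpha globin, with log2 ratios of 1.03, 0.12, 0.41 and 0.72 on the 4 control arrays. All 4 lay above 0, with a mean of 0.57 (SE 0.17, adjusted p = 0.021) in the fit with every spot kept. Its larval signal was above background on 2 of the 4 control arrays and on 7 of all 16. The value of 0.12 came from a spot without a deposited ratio. The call was lost without control replicate 1 (0.42, adjusted p = 0.16), without control replicate 4 (0.52, adjusted p = 0.082), with low Cy3 background as a block (0.62, adjusted p = 0.059) and after correction for position in the array's ID order (0.41, adjusted p = 0.11).

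The other hbae1.1 probes did not pass in these fits. Calls under other settings are given below without the share of all probes called there, unless that share is stated. Probe 5448063 gave 0.68, -0.16, 0.18 and 0.74 on the control arrays (mean 0.36, SE 0.18, adjusted p = 0.17), above 0 on 3 of 4. It was called with median centring (0.54, adjusted p = 0.038), with all 18 scans as arrays (0.43, adjusted p = 0.033) and with low Cy3 background as a block (0.58, adjusted p = 0.041). Probe 5454231, the brightest of the 6, gave 0.21, 0.14, 0.43 and 0.54 (mean 0.33, SE 0.18, adjusted p = 0.21), above 0 on every control array, and was called with median centring (0.63, adjusted p = 0.032). Probe 5450879 gave 0.10, 0.49, -0.27 and 0.41 (mean 0.18, SE 0.17), with its larval signal above background on no control array. Probe 5453374 gave 0.00, 0.54, 0.39 and 0.08 (mean 0.25, SE 0.19). Probe 5449461, the dimmest, gave -0.48, -0.26, -0.28 and -0.39 (mean -0.35, SE 0.22), below 0 on all 4, with its larval signal above background on none of them. Probes under the same name thus had control means from -0.35 to 0.57, and only that of 5449461 was below 0. The reference signal of 5449461 was above background on 1 of the 4 control arrays, and where neither channel was, the ratio sets no bound.

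The 6 hbae1.1 probes also varied separately across the 16 arrays. Their 15 pairwise correlations of log2 ratios had a median Pearson r of 0.03 and ran from -0.43 to 0.47, over arrays that share the reference RNA. Larval signal was above background on 15, 15 and 10 arrays for probes 5448063, 5454231 and 5453374. For 5452348, 5450879 and 5449461 it was so on 7, 4 and 2. The correlations thus mix brighter probes with ones near background, and no median was taken for the brighter ones alone. On a single array the 6 values spread over 0.56 to 2.07, with a median spread of 0.85. The mean over the 6 probes was 0.22 ± 0.10 in control larvae (SD, n = 4).

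Among the embryonic beta globins, the bright hbbe1.1 probe 5450958 gave 0.25, 0.24, 0.18 and -0.04 on the control arrays, near the reference level (mean 0.16, SE 0.18). The second hbbe1.1 probe, 5452650, had 3 kept control values of -0.43, 0.06 and -0.39 (mean -0.25, SE 0.21). The pair correlated at r = 0.47 over the arrays. Control means were 0.17 ± 0.40 for hbbe2, -0.10 ± 0.48 for hbbe3 and -0.04 ± 0.48 for the alpha globin hbae3 (SD, n = 4), each with control arrays on both sides of 0. Their larval signal was above background on 1, 3 and 0 of the 4 control arrays, and their reference signal on 2, 4 and 4.

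Of the adult globins, hbba1 had the lowest ratios of all members. Its log2 ratio was -1.06, -0.26, -0.54 and -0.99 on the control arrays (mean -0.71, SE 0.29, adjusted p = 0.098), and it lay below 0 on 15 of the 16 arrays of the study. The larval channel was above background for hbba1 on no control array and the reference channel on 2 of 4, so no fold is given. The control value of hbba1 was called with median centring (-0.82, adjusted p = 0.043) and with all 18 scans as arrays (-0.77, adjusted p = 0.036). It was also called without BPA_1500 replicate 3 (-0.71, adjusted p = 0.046) and with low Cy3 background as a block (-1.21, adjusted p = 0.017). The block value is extrapolated and lies below every control array. In controls hbaa2 gave -0.06, 0.07, 0.22 and 0.31, with both channels above background on all 4 arrays. For hbba2 the values were 0.07, -0.34, 0.00 and -0.04, with the larval channel above background on none of the 4 control arrays and the reference channel on all 4. The symbols hbba1, hbba2 and hbaa2 come from the older names ba1, wu:fj42e02 and a clone name on the array.

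The brighter cahz probe 5449157 was below the reference on every control array, at -0.34, -0.66, -0.75 and -0.27 (mean -0.51, SE 0.18, adjusted p = 0.053). It was called with array quality weights (-0.56, adjusted p = 0.0018), with all 18 scans as arrays (-0.46, adjusted p = 0.027) and, at -0.51, without BPA_1500 replicate 2 or BPA_4500 replicate 1, 3 or 4 (adjusted p 0.034 to 0.048). Its value was -0.15 with low Cy3 background as a block, an extrapolated value above every control array, and -0.26 after correction for position. The dimmer probe 5461345, above background in no control larvae, gave -0.16, -0.50, -0.15 and 0.23. The pair correlated at r = 0.19 over the 16 arrays. Probe 5449157 was annotated on the array with the older name wu:fj65c09, and only 5461345 with the symbol cahz.

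**Figure D2:**
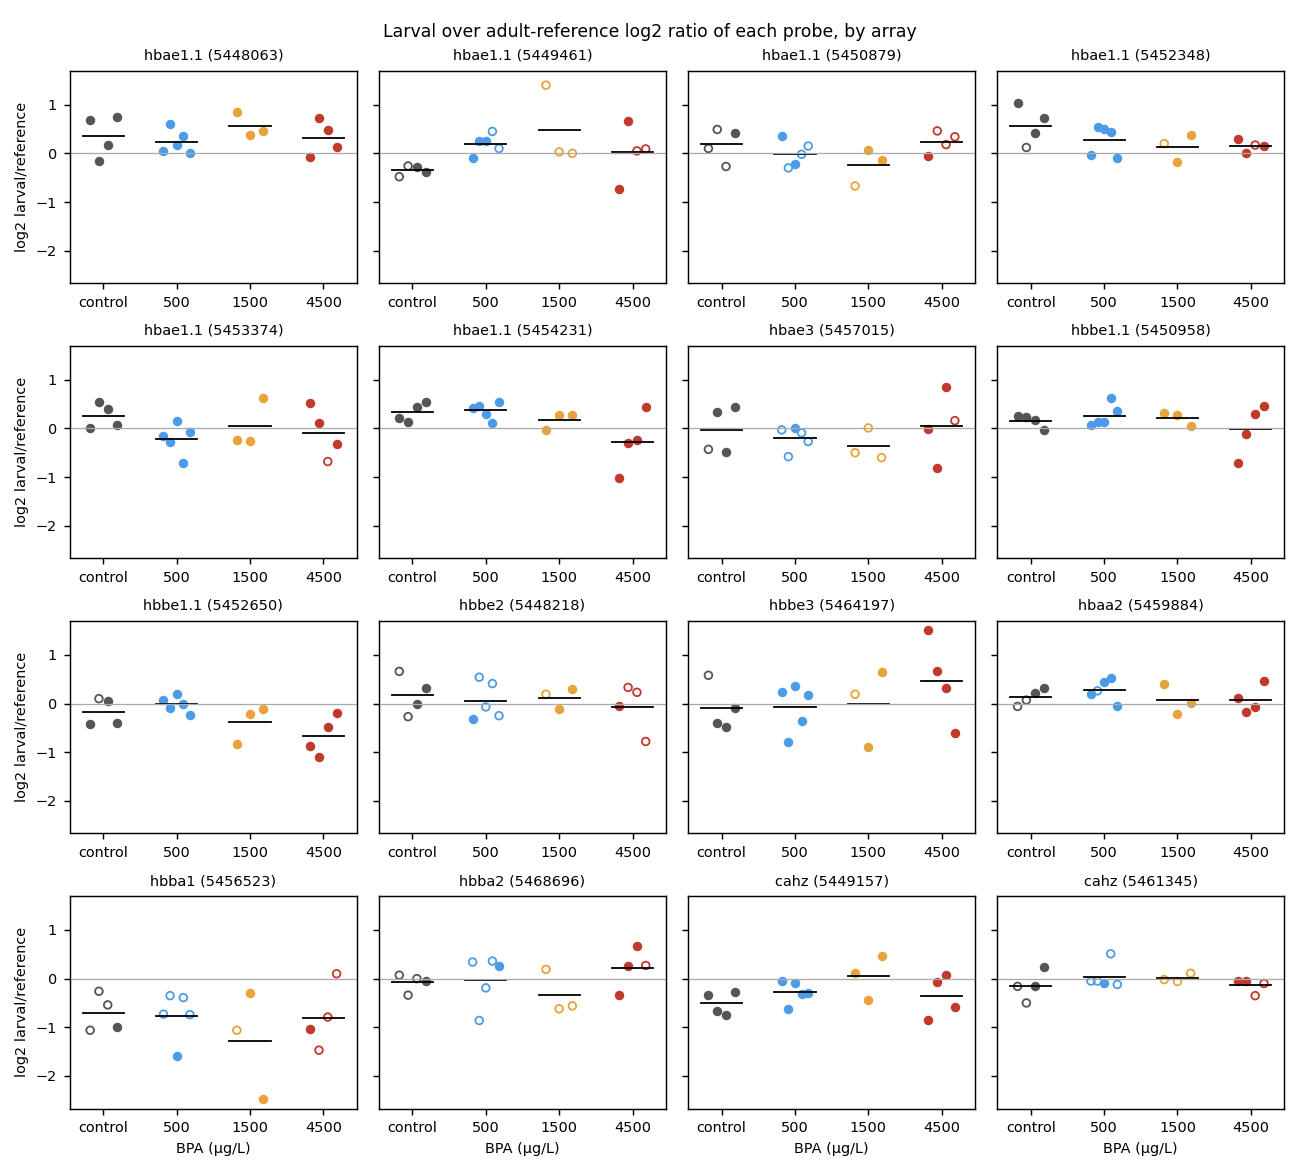
Each panel shows 1 probe, with the log2 larval over reference ratio of every array on the y axis and the 4 groups on the x axis. Filled points are spots with a deposited ratio, open points those without one, and bars are means over all points of a group. The control and BPA points overlap in nearly every panel, and hbba1 sits below 0 on 15 of 16 arrays.

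Embryonic and adult globins were set against each other on each array, as the mean over the 11 embryonic probes minus the mean over the 3 adult probes. This is a description of chosen probes and carries no test. The median reference signal above local background was 352, 304.5 and 489 scanner units for hbba1, hbba2 and hbaa2. Over the embryonic probes it ran from 211 (5449461) to 1405 (5454231), so the adult-named probes were not the brightest in the adult reference. Whether each probe measures only the gene it is named for was not tested. The difference was 0.55, 0.25, 0.12 and 0.45 on the control arrays, a mean of 0.34 ± 0.19 (SD, n = 4), with embryonic above adult on each. Since hbba1 and hbba2 had larval signal above background on no control array, this is a difference between measured values and gives no size for a difference between larvae and adults. Over the whole study it was above 0 on 14 of 16 arrays. The exceptions were BPA_500 replicate 4 at -0.05 and BPA_4500 replicate 4 at -0.29. This difference rested on hbba1: without that probe it was above 0 on 8 of 16 arrays, with a control mean of 0.09 ± 0.14. On spots with a deposited ratio alone the control mean was 0.13.

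In exposed larvae the difference was 0.25 ± 0.25 at 500 µg/L (SD, n = 5), 0.58 ± 0.52 at 1500 µg/L (n = 3) and 0.18 ± 0.34 at 4500 µg/L (n = 4), and each range overlapped that of the controls. With 1 array left out the mean ran from 0.27 (without control replicate 1) to 0.42 (without control replicate 3) in controls and from 0.16 (without BPA_500 replicate 3) to 0.32 (without BPA_500 replicate 4) at 500 µg/L. It ran from 0.28 (without BPA_1500 replicate 3) to 0.75 (without BPA_1500 replicate 1) at 1500 µg/L and from 0.07 (without BPA_4500 replicate 2) to 0.33 (without BPA_4500 replicate 4) at 4500 µg/L. Without hbba1 the means were -0.05, 0.19 and -0.14, so that the sign turned at 500 and 4500 µg/L. At 4500 µg/L it also turned, to -0.08, on spots with a deposited ratio alone. The embryonic mean itself was 0.12 ± 0.10 in controls (SD over arrays). It was 0.08 ± 0.05, 0.06 ± 0.11 and 0.01 ± 0.09 at the 3 concentrations in rising order. Each range overlapped that of the controls, and the gaps between these means were not tested.

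**Figure D3:**
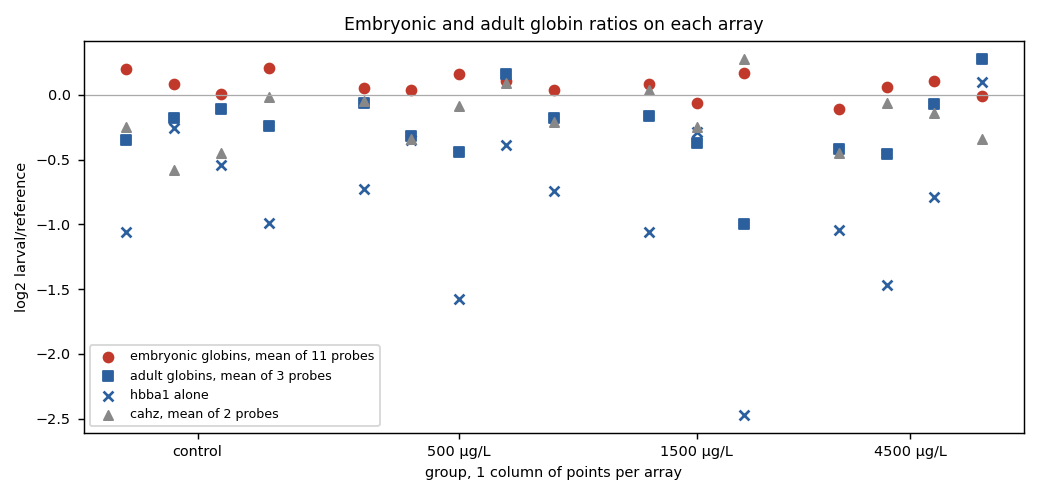
The y axis gives the log2 larval over reference ratio and each column on the x axis is 1 array, ordered by group. Circles are means over embryonic globin probes, squares over adult globin probes and triangles over cahz probes, and crosses are hbba1 alone. Circles stay between -0.11 and 0.21, while hbba1 reaches -2.47 on BPA_1500 replicate 3.

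Against the adult reference, no member was called at 500 µg/L, where 15.0% of the 3878 probes and 14.1% of all probes were. With median centring hbae1.1 probes 5448063 (0.49, adjusted p = 0.029) and 5454231 (0.77, adjusted p = 0.0035) were called there. So was hbbe1.1 probe 5450958 (0.63, adjusted p = 0.0045). Median centring makes no correction for brightness, and these probes stood at percentiles 88.8, 97.0 and 94.8 of brightness. With array quality weights 5454231 (0.36, adjusted p = 0.018) and 5450958 (0.32, adjusted p = 0.036) were called. The shares of all probes called in the alternatives named here are not given. For hbba1 the mean at 500 µg/L was -0.76 (adjusted p = 0.057), which passed in 6 alternatives (adjusted p 0.013 to 0.038). Counts of alternatives in this paragraph are out of at most 30 settings, which reuse the same arrays, many with 1 left out. Such passes are not independent, and the share of all probes called in those settings is not given. Its larval channel was above background there on 1 of 5 arrays and its reference channel on all 5. At 1500 µg/L 1 member was called, against 25.6% and 5.29%. This was hbba1, with -1.06, -0.29 and -2.47 (mean -1.28, SE 0.33, adjusted p = 0.031). The 3 arrays lie far apart, the larval channel was above background on 1 of them, and the call was lost without replicate 1 (-1.38, adjusted p = 0.13) or replicate 3 (-0.68, adjusted p = 0.36) and after position correction (-1.03, adjusted p = 0.071). Probe 5448063 at 1500 µg/L was 0.55 (adjusted p = 0.054) and passed in 9 alternatives (adjusted p 0.021 to 0.048). At 4500 µg/L 1 member was called, against 40.8% and 11.2%. This was hbbe1.1 probe 5452650, with -0.87, -1.10, -0.49 and -0.19 (mean -0.67, SE 0.18, adjusted p = 0.0057), below 0 on all 4 arrays. It was not called without BPA_4500 replicate 2 (-0.52, adjusted p = 0.054) or after position correction (-0.34, adjusted p = 0.081), and the other hbbe1.1 probe gave -0.71, -0.12, 0.29 and 0.46 on the same arrays. Without BPA_4500 replicate 4, probe 5454231 was called as well (-0.51, adjusted p = 0.028). For hbba1 the mean at 4500 µg/L was -0.80 (adjusted p = 0.079), which passed in 4 alternatives (adjusted p 0.026 to 0.05). Its larval channel was above background on no array at 4500 µg/L and its reference channel on 3 of 4. After position correction hbae1.1 probe 5450879 passed (0.55, adjusted p = 0.044), with larval signal above background on 1 of 4 arrays.

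The second comparison asks whether BPA changed these genes relative to the vehicle. At an adjusted p of 0.05, 0 of 16 members differed from control at any concentration in limma's test. Among the 3878 probes the background was 0.0% for both lower concentrations and 0.0258% for the highest, and 0.0%, 0.0131% and 3.08% when every spot was kept. At an unadjusted p under 0.05 the counts were 0, 1 and 1 of 16 at 500, 1500 and 4500 µg/L, where 1.47%, 7.19% and 20.5% of the 3878 probes passed and 3.72%, 11.2% and 21.8% of all probes. The plain tests against control that the study's methods name were also run in place of limma, here with adjusted p-values. They gave an adjusted p under 0.05 to 0 of the 3878 probes and 0 of all 22980 at each concentration, members included. The study itself used another threshold, an unadjusted p under 0.05 among genes with an FDR under 0.2 over the groups. These counts therefore do not repeat the study's own selection. In the test over all 4 groups the lowest FDR among members was 0.37 on the 3878 probes, where 0.0% of probes had an FDR under 0.2, and 0.34 with every spot kept, where 6.29% did.

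These data leave room for moderate changes. The 95% intervals of the members' log2 fold changes ran from -1.0 to 1.16 at 500 µg/L, from -1.48 to 1.53 at 1500 µg/L and from -1.14 to 1.42 at 4500 µg/L, which in fold terms reach 0.501 to 2.23, 0.358 to 2.88 and 0.454 to 2.67. The bounds of 1.16 and 1.53 belong to hbae1.1 probe 5449461 and that of -1.48 to hbba1. Each of these 2 probes had larval signal above background on 2 of 16 arrays. Their intervals cover the measured ratios and set no bound on a larger change in the larvae. Standard errors were 0.20 to 0.44. Median log2 fold changes over the 16 members with every spot kept were 0.03, -0.11 and -0.05, against 0.02, 0.04 and 0.02 over all 22980 probes. Among the 3878 probes the median itself was -0.17 at 4500 µg/L, and the -0.16 over the 6 members tested there is no lower than that.

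The lowest fold change at 4500 µg/L was that of hbae1.1 probe 5454231. Its log2 ratios were -1.01, -0.29, -0.24 and 0.44, against 0.14 to 0.54 in controls, so that 3 of the 4 arrays lay below all controls and replicate 4 among them. The log2 fold change was -0.60 (SE 0.26, adjusted p = 0.2). Without BPA_4500 replicate 4 it was -0.84 (adjusted p = 0.028), a setting in which 11.8% of the tested probes were called in place of 0.0258%. At 500 and 1500 µg/L the same probe gave 0.04 (SE 0.25) and -0.16 (SE 0.28).

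Probe 5449461 of the same gene went the other way. At 500 µg/L it gave -0.10, 0.25, 0.26, 0.45 and 0.10 and at 1500 µg/L 1.40, 0.03 and 0.00, all above the highest control value of -0.26. It was the only member whose arrays did not overlap the controls, 1 of 16 at each of these concentrations, where 1.66% and 9.99% of all probes did not overlap. None did so at 4500 µg/L, where 8.46% of all probes did. The log2 fold changes were 0.54 (SE 0.29, adjusted p = 1) and 0.83 (SE 0.33, adjusted p = 0.37), and the latter was 0.37 with low Cy3 background as a block. At 4500 µg/L the log2 fold change was 0.37 (SE 0.31). This is the dimmest member, with its larval signal above background on 2 of 16 arrays.

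For cahz, probe 5449157 rose nowhere past the threshold in the fit on spots with a deposited ratio without array weights. It gave 0.11, -0.43 and 0.46 at 1500 µg/L, above all controls on 2 of 3 arrays (log2 fold change 0.56, SE 0.28, adjusted p = 0.65). That value fell to 0.08 with low Cy3 background as a block, and it was 0.81 (adjusted p = 0.027) with array quality weights. The other cahz probe gave 0.15 (SE 0.23). At 4500 µg/L they gave 0.15 (SE 0.26) and 0.01 (SE 0.21), and at 500 µg/L 0.23 (SE 0.25) and 0.19 (SE 0.20).

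None of the remaining members passed against control. For hbbe1.1 probe 5452650 the log2 fold change was 0.24, -0.13 and -0.42 at the 3 concentrations in rising order (SE 0.26, 0.29 and 0.27), and for probe 5450958 it was 0.11, 0.06 and -0.18 (SE 0.24, 0.27 and 0.25). In the same order, hbae1.1 probe 5448063 gave -0.12, 0.20 and -0.04 (SE 0.24, 0.28 and 0.26), probe 5450879 -0.19, -0.43 and 0.05 (SE 0.23, 0.26 and 0.24), probe 5452348 -0.30, -0.44 and -0.41 (SE 0.22, 0.26 and 0.24) and probe 5453374 -0.47, -0.20 and -0.15 (SE 0.26, 0.29 and 0.29). No interval among these 4 probes left out 0. The alpha globin hbae3 gave -0.15, -0.33 and 0.08 (SE 0.29, 0.34 and 0.31) and the beta globin hbbe2 -0.11, -0.05 and -0.24 (SE 0.27, 0.31 and 0.28). For hbbe3 the log2 fold change was 0.02 and 0.08 at the lower concentrations and 0.57 (SE 0.41) at 4500 µg/L, where the arrays ran from -0.61 to 1.50. For hbba1 it was -0.04, -0.56 and -0.09 (SE 0.39, 0.44 and 0.41), the widest errors in the set along with hbbe3. The adult globins hbaa2 and hbba2 gave 0.14, -0.07 and -0.05 (SE 0.21, 0.23 and 0.22) and 0.06, -0.25 and 0.29 (SE 0.27, 0.31 and 0.29).

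**Figure D4:**
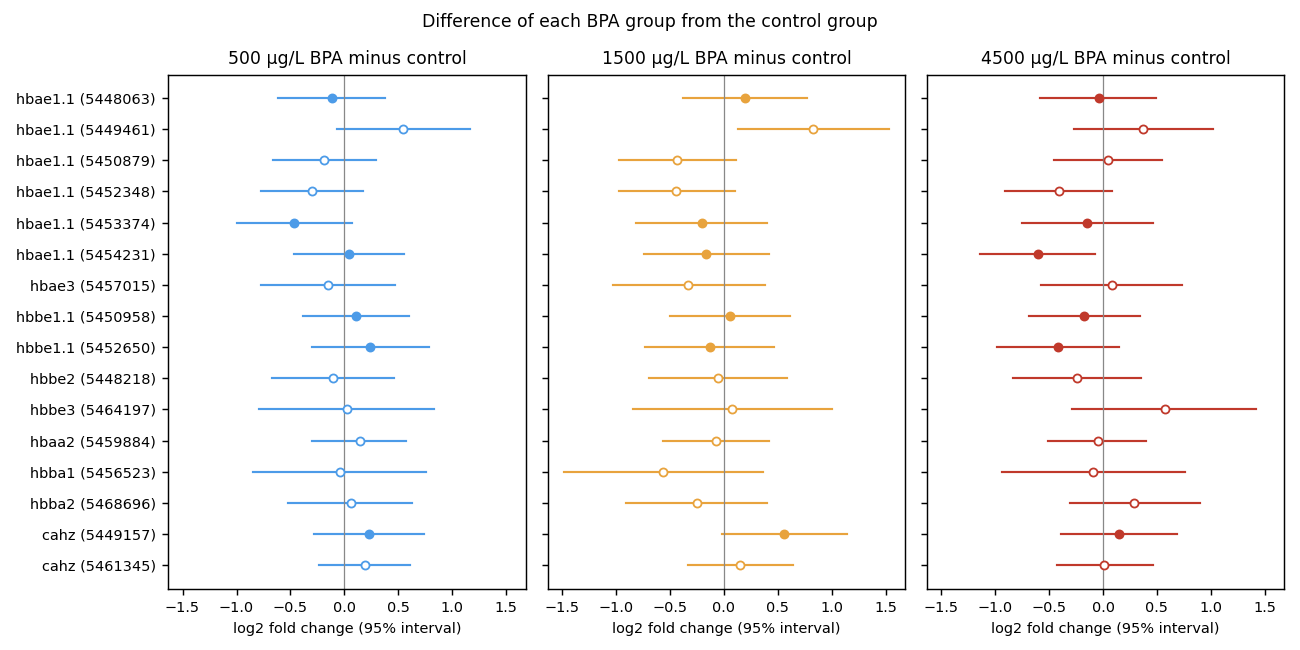
Each row is 1 probe and each panel 1 BPA concentration, with the log2 fold change against control on the x axis and its 95% interval from limma as a line. Filled points come from the fit on spots with a deposited ratio and open points from the fit with every spot. All but 2 of the 48 intervals hold 0, the exceptions being 5449461 in the 1500 µg/L panel and 5454231 in the 4500 µg/L panel, both for hbae1.1.

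Between BPA concentrations 0 of 16 members were called, where none of the 3878 probes were (0.0%) and 0.0%, 0.0827% and 0.0% of all probes were for 1500 against 500, 4500 against 500 and 4500 against 1500 µg/L. At an unadjusted p under 0.05 the counts were 0, 2 and 0. The background was 7.89%, 20.9% and 3.84% of the 3878 probes, and 7.65%, 17.8% and 4.23% with every spot kept. The 2 were hbae1.1 probe 5454231 and hbbe1.1 probe 5452650, both with a lower mean at 4500 than at 500 µg/L. Without BPA_4500 replicate 4, 2 of 5 members tested were called for that pair of concentrations, in a setting where 13.7% of the tested probes were. These comparisons share arrays with those against control.

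Other genes, not all of them specific to red cells, were read from 8 lists. The lists cover heme synthesis, iron, the red cell membrane, red cell enzymes, erythroid transcription factors, other globins, other carbonic anhydrases and the hypoxia response. Of their 140 genes, 86 were measured, on 103 probes. Against control, none of the 103 probes passed an adjusted p of 0.05 at 500 or 1500 µg/L. At 4500 µg/L 1 rose and 1 fell, both in the fit with every spot, where 3.08% of all probes passed. Of all probes 639 rose and 68 fell there, so rises were the more common call. Whether the larval signal of the listed genes was above background is not given. At an unadjusted p under 0.05 the counts were 1 up and 1 down, 5 up and 1 down, and 8 up and 7 down of the 103 probes, where 3.72%, 11.2% and 21.8% of all probes passed.

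The probe that rose was gpx1b, a glutathione peroxidase that removes peroxides, by 1.49 on the log2 scale at 4500 µg/L (SE 0.33, adjusted p = 0.026). Its control level was -1.92 against the adult reference (SE 0.23). The probe that fell was ldb1a, a cofactor that joins erythroid transcription factors at globin genes in mouse, at -0.78 (SE 0.20, adjusted p = 0.043). Neither call held with low Cy3 background as a block, at 1.27 (adjusted p = 0.17) for gpx1b and -0.86 (adjusted p = 0.15) for ldb1a. Leaving out 1 array ended the gpx1b call in 6 of 16 cases, with control replicate 1, 2 or 3 or BPA_4500 replicate 1, 2 or 3 left out.

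Heme synthesis was measured through 10 of 17 genes on 13 probes, with none called against control. The enzymes alad and hmbsb, which make and join porphobilinogen, had the smallest p at 4500 µg/L, at 1.11 (SE 0.30, adjusted p = 0.052) and 1.32 (SE 0.50, adjusted p = 0.14). Both lay below the adult reference in control larvae, at -0.76 (adjusted p = 0.017) and -2.11 (adjusted p = 0.00026). The list's median log2 fold change at 4500 µg/L was 0.24 with every spot kept, against 0.02 over all probes. On its 2 probes with enough deposited ratios the median was -0.15, against -0.17 over all probes of that fit.

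Iron genes, 18 of 22 measured, gave no call against control. The mitochondrial iron carrier slc25a28 stood at 0.96 (SE 0.35) and the biliverdin reductase blvrb at -0.81 (SE 0.28). In the red cell membrane list, 11 of 20 genes measured, the cytoskeletal gene epb41b gave 0.35 (SE 0.27) and the water channel aqp1a.1 0.41 (SE 0.23). The glutathione reductase gsr gave 0.80 (SE 0.40) and the transcription factor gata2a -0.55 (SE 0.20).

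The globins ngb and cygb1, which bind oxygen outside red cells, gave 0.37 (SE 0.28) and 0.62 (SE 0.30). The carbonic anhydrase family genes ca8 and ca7 gave -0.28 (SE 0.23) and -0.35 (SE 0.27). Of the hypoxia genes, the oxygen-sensing egln3 gave -0.68 (SE 0.33) and the hypoxia factor hif1ab 1.25 (SE 0.34, adjusted p = 0.051). None of these passed in the fit given, and all were read with every spot kept. Without BPA_4500 replicate 4, alad (1.46, adjusted p = 0.0036), hmbsb (1.71, adjusted p = 0.034), slc25a28 (1.27, adjusted p = 0.019), blvrb (-1.1, adjusted p = 0.01) and hif1ab (1.43, adjusted p = 0.017) passed, in a setting where 12.6% of all probes did.

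As further markers of red cells, alas2, the first enzyme of erythroid heme synthesis, gata1a, a master regulator of red cells, and slc4a1a, the anion exchanger of the red cell membrane, were measured by 1 probe each. In control larvae they gave log2 ratios of -0.12 (SE 0.19), 0.30 (SE 0.21) and 0.29 (SE 0.24), none called. Their fold changes at 4500 µg/L were 0.35, 0.01 and -0.25 and those at 1500 µg/L -0.04, 0.05 and -0.72 (SE 0.36, adjusted p = 0.46, for slc4a1a), none called.

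Among 1354 probes with a symbol and a value on every array, those most like the mean of the embryonic globin probes were edf1 and taf13, each with a Pearson r of 0.82 over 16 arrays, then lpar2a at 0.72, timm17a at 0.71, plin3 at 0.70 and slc25a27 at 0.69. The median over all 1354 was 0.07. After correction for position in the ID order the same probes had r of 0.57, 0.67, 0.17, 0.21, 0.07 and 0.35.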

How the data were processed

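The 18 deposited files are scanner output of 2-colour arrays with 23232 spots. Their intensity columns hold foreground and local background of both channels, which the authors deposited unnormalized. A further column holds log2 ratios of Cy5 over Cy3, which the authors Lowess-normalized and deposited for 5127 to 19980 spots of a scan. A column shift in 16654 lines of control replicate 1 was undone. Background was corrected by normexp (offset 50) from the mean foreground and median local background, followed by loess within arrays and averaging over spots of an accession. Spots without a deposited ratio were left out, and probes needed 3 values in each group. Members and listed genes without them, and the embryonic minus adult difference, were taken with every spot kept. For that difference the choice was made after the data were seen. The groups were fitted together in limma 3.58.1 (R 4.3.3), sharing 1 estimate of the spread, and p-values were adjusted by Benjamini-Hochberg over all tested probes. The fit was tested on simulated data with changes of known size at 4500 µg/L, 50 probes for each size. A log2 rise of 1 was called for 48% of these on spots with a deposited ratio and 14% with every spot. For a rise of 2 it was 96% and 84%, and for a fall of 1 it was 56% and 18%. A rise of 0.5 was called for 2% and 4%. In the simulation noise was drawn separately for each probe, and the few changed probes were picked at random. The percentages describe such probes and do not give the power for the members in these data. The number of arrays limits the precision.

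Symbols were assigned to 11724 spots, by accession for 55, by current symbol for 3538, by a unique older name for 7978 and as annotated for 153. Every member probe is named with its values. From each list the 2 genes with the smallest p at 4500 µg/L are named, and the 6 probes that correlate best with the embryonic mean. Members and lists were chosen with earlier results of these data known. In all, 12 planned and 3 added processing choices were varied. Files were read in Python 3.11.15 (pandas 2.3.3, numpy 2.4.6) and plots drawn with matplotlib 3.10.9.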

Additional observations from a re-analysis of the deposited data

Results flagged for a closer look

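Of 46 probe and group combinations with 4 or 5 arrays, 1 held an array far from the others. For the dim cahz probe 5461345, BPA_500 replicate 4 had a log2 ratio of 0.51 and the other 4 arrays -0.12 to -0.05. Chance alone flags about 1 in 20 such groups.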

How the results depend on the processing

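The 128 single-probe log2 values were recomputed under the alternatives, giving 3113 values. Of these, 2858 kept their direction and side of the threshold, 57 passed it newly, 34 no longer passed and 164 changed sign. The changes of sign touched 50 probe and comparison pairs, none of them called in either setting, with a median size of 0.05 before the change. For the counts of members with an adjusted p under 0.05 among those tested on spots with a deposited ratio (6, or 9 with all 18 scans as arrays or a minimum of 2 values per group, 16 with every spot kept and 5 to 8 with 1 array left out), control larvae against the reference gave 0. This became 2 with median centring, 3 with all 18 scans as arrays, and 1 each with a minimum of 2 values per group, array weights, the Cy3 block or every spot kept, and 0 to 1 with 1 array left out. At 500 µg/L against the reference it was 0, then 3 with median centring and 2 with array weights. At 1500 µg/L it was 0, then 1 with median centring, no background correction, all 18 scans as arrays, array weights or every spot kept, and 0 to 1 with 1 array left out. At 4500 µg/L it was 1, then 0 with position correction and 0 to 2 with 1 array left out. Against control, the count of 0 at 1500 µg/L became 1 with array weights, and that at 4500 µg/L was 0 to 1 with 1 array left out. For 4500 against 500 µg/L it was 0 to 2 with 1 array left out. Members with an FDR under 0.2 over the 4 groups rose from 0 to 1 with all 18 scans and 4 with array weights, and were 0 to 2 with 1 array left out. In 4 of these comparisons the highest count with 1 array left out came without BPA_4500 replicate 4. The cause of these shifts was not tested. The share of all tested probes called in each setting is not set beside these counts. They describe the settings and are not a result about the members.

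The embryonic minus adult difference in controls was 0.34, against 0.13 on spots with a deposited ratio, 0.08 with the deposited normalized ratios and 0.09 without hbba1. Without hbba1 it turned to -0.05 in BPA_500 larvae and -0.14 in BPA_4500 larvae, and on spots with a deposited ratio to -0.08 at 4500 µg/L. Arrays that share a replicate number did not deviate together: the median r over 21 such pairs was -0.03, against 0.01 for 74 other pairs. With the replicate number as a block, hbae1.1 probe 5452348 in controls gave 0.48 (adjusted p = 0.12), hbba1 at 1500 µg/L against the reference -1.16 (adjusted p = 0.11) and ldb1a at 4500 µg/L -0.78 (adjusted p = 0.077). No other call of a named probe changed with the block. The sources used here do not say what a shared number stands for.

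Log2 values that changed sign, none of them called, are given by comparison.

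In control larvae against the reference, hbae3 5457015 was -0.04, against 0.04 with median centring, 0.06 with all 18 scans as arrays and a range of -0.19 to 0.11 with 1 array left out. hbbe3 5464197 was -0.10, against 0.10 with median centring, 0.18 with the Cy3 block, 0.41 with position correction and a range of -0.32 to 0.03 with 1 array left out. hbba2 5468696 was -0.08, against 0.15 with the Cy3 block and a range of -0.13 to 0.01 with 1 array left out.

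At 500 µg/L against the reference, cahz 5449157 was -0.28, against 0.12 with median centring and 0.08 with the Cy3 block. hbae1.1 5449461 was 0.19, against -0.05 with median centring. hbae1.1 5450879 was -0.01, against 0.01 with no background correction and position correction, 0.02 with array weights and a range of -0.10 to 0.07 with 1 array left out. hbbe1.1 5452650 was -0.01, against 0.24 with median centring, 0.06 with position correction and a range of -0.06 to 0.04 with 1 array left out. hbae1.1 5453374 was -0.21, against 0.00 with median centring. cahz 5461345 was 0.04, against 0.00 with median centring and a range of -0.08 to 0.08 with 1 array left out. hbbe3 5464197 was -0.08, against 0.14 with median centring, 0.01 with no background correction, 0.20 with the Cy3 block, 0.26 with position correction and a range of -0.19 to 0.10 with 1 array left out. hbba2 5468696 was -0.02, against 0.07 with array weights, 0.21 with the Cy3 block, 0.02 with position correction and a range of -0.12 to 0.19 with 1 array left out. hbbe2 5448218 was 0.06, against a range of -0.06 to 0.16 with 1 array left out.

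At 1500 µg/L against the reference, cahz 5449157 was 0.05, against -0.07 with the Cy3 block and a range of -0.16 to 0.29 with 1 array left out. hbae1.1 5452348 was 0.13, against -0.02 with position correction. hbae1.1 5453374 was 0.05, against -0.03 with the deposited normalized ratios, -0.15 with position correction, -0.05 with the replicate block and a range of -0.24 to 0.20 with 1 array left out. cahz 5461345 was 0.01, against -0.06 with median centring, -0.02 with position correction and a range of -0.04 to 0.04 with 1 array left out. hbbe3 5464197 was -0.02, against 0.12 with median centring, 0.04 with no background correction, 0.15 with all 18 scans as arrays, 0.20 with array weights, 0.29 with position correction and a range of -0.35 to 0.42 with 1 array left out. hbaa2 5459884 was 0.07, against a range of -0.10 to 0.21 with 1 array left out.

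At 4500 µg/L against the reference, hbbe2 5448218 was -0.07, against 0.01 with array weights and a range of -0.20 to 0.17 with 1 array left out. hbae1.1 5449461 was 0.02, against -0.06 with median centring, -0.02 with no background correction, -0.36 with position correction, 0.00 with the replicate block and a range of -0.20 to 0.27 with 1 array left out. hbbe1.1 5450958 was -0.02, against 0.11 with median centring, 0.04 with array weights, 0.24 with position correction and a range of -0.18 to 0.21 with 1 array left out. hbae1.1 5453374 was 0.10, against -0.19 with position correction and -0.09 with every spot kept. hbae3 5457015 was 0.05, against -0.03 with position correction and a range of -0.22 to 0.33 with 1 array left out. hbaa2 5459884 was 0.08, against a range of -0.05 to 0.17 with 1 array left out.

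At 500 µg/L against control, hbbe1.1 5450958 was 0.11, against -0.01 with position correction. hbae1.1 5454231 was 0.04, against 0.00 with the deposited normalized ratios and all 18 scans as arrays, -0.01 with the replicate block and a range of -0.02 to 0.11 with 1 array left out. hbba1 5456523 was -0.04, against 0.01 with median centring and no background correction and all 18 scans as arrays and a range of -0.16 to 0.16 with 1 array left out. hbae3 5457015 was -0.15, against 0.02 with array weights and a range of -0.30 to 0.01 with 1 array left out. hbbe3 5464197 was 0.02, against 0.00 with array weights, -0.15 with position correction, -0.05 with the replicate block and a range of -0.11 to 0.24 with 1 array left out. hbba2 5468696 was 0.06, against -0.09 with no background correction, -0.01 with the replicate block and a range of -0.04 to 0.27 with 1 array left out. hbae1.1 5448063 was -0.12, against a range of -0.29 to 0.01 with 1 array left out. hbbe2 5448218 was -0.11, against a range of -0.26 to 0.06 with 1 array left out.

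At 1500 µg/L against control, hbae1.1 5448063 was 0.20, against -0.10 with the Cy3 block and position correction. hbbe2 5448218 was -0.05, against 0.01 with no background correction, 0.00 with array weights and a range of -0.19 to 0.12 with 1 array left out. hbbe1.1 5450958 was 0.06, against -0.03 with median centring, -0.04 with array weights, 0.00 with the Cy3 block, -0.06 with position correction and a range of -0.01 to 0.14 with 1 array left out. hbbe1.1 5452650 was -0.13, against 0.04 with the Cy3 block and a range of -0.27 to 0.09 with 1 array left out. hbae1.1 5453374 was -0.20, against 0.01 with array weights. hbba1 5456523 was -0.56, against 0.09 with the Cy3 block and a range of -1.05 to 0.04 with 1 array left out. hbaa2 5459884 was -0.07, against 0.05 with array weights and position correction, 0.01 with the replicate block and a range of -0.23 to 0.07 with 1 array left out. hbbe3 5464197 was 0.08, against -0.29 with the Cy3 block, -0.12 with position correction, -0.06 with the replicate block and a range of -0.25 to 0.52 with 1 array left out.

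At 4500 µg/L against control, hbae1.1 5448063 was -0.04, against 0.02 with the deposited normalized ratios, 0.03 with no background correction, 0.09 with array weights and a range of -0.22 to 0.08 with 1 array left out. cahz 5449157 was 0.15, against -0.01 with median centring and -0.21 with the Cy3 block. hbae1.1 5450879 was 0.05, against -0.02 with no background correction and a range of -0.10 to 0.15 with 1 array left out. hbbe1.1 5450958 was -0.18, against 0.02 with position correction and a range of -0.34 to 0.05 with 1 array left out. hbae1.1 5453374 was -0.15, against 0.08 with the deposited normalized ratios. hbba1 5456523 was -0.09, against 0.03 with median centring, 0.00 with no background correction, 0.40 with the Cy3 block, 0.10 with position correction and a range of -0.39 to 0.13 with 1 array left out. hbae3 5457015 was 0.08, against -0.01 with all 18 scans as arrays and a range of -0.18 to 0.37 with 1 array left out. cahz 5461345 was 0.01, against -0.01 with median centring, -0.06 with all 18 scans as arrays, -0.07 with position correction and a range of -0.11 to 0.14 with 1 array left out. ngb 5447810 was 0.37, against -0.03 with the Cy3 block. hbaa2 5459884 was -0.05, against a range of -0.18 to 0.03 with 1 array left out.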
